A study of Mus musculus with 24 samples.

Results

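The neurotransmitter receptor genes of mouse embryonic stem cells (ESCs) were followed here, as the genes whose symbols name a subunit of a receptor for GABA, glycine, glutamate, acetylcholine, serotonin, dopamine or adrenaline and noradrenaline. The choice was by gene symbol. It gave 99 genes of 19409 gene symbols in the table, and 100 of 20633 transcripts, since Adra1b had a pair of transcripts, of which the one with more reads was kept. By class there were 19 GABA-A, 2 GABA-B, 5 glycine, 4 AMPA, 5 kainate, 7 NMDA, 8 metabotropic glutamate (mGlu), 16 nicotinic, 5 muscarinic, 14 serotonin, 5 dopamine and 9 adrenergic receptor genes.

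Expression was measured by calibrated RNA-seq (cRNA-seq), in which a known share of Drosophila cells is added to the ESCs, and their RNA sets a scale per cell. The PRC1CKO line, clone B9, carries a constitutive Ring1a-/- deletion and floxed Ring1b (Ring1bfl/fl), and loses Ring1b once 4-hydroxytamoxifen (OHT) activates the ERT2-Cre expressed from the Rosa26 locus, which is present in both lines. The PRC1CPM line, clone 41, carries the catalytic point mutant Ring1aI50A/D53K throughout, and OHT switches its floxed Ring1b (fl/fl) from the wild-type to the I53A/D56K form, which is catalytically inactive. Both are E14 ESCs, and each was sampled without treatment and following 72 h in 800 nM OHT, which gave 4 conditions with 3 biological replicates apiece. Each line is 1 clone, and untreated cells of both lines already lack normal RING1A, so that a difference between the lines cannot be told apart from a difference between clones. No line without these Ring1b alleles was given OHT in the data analysed here, so that effects of OHT or of Cre cannot be told apart from those of the alleles.

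Neurotransmitter receptors are membrane proteins by which neurons, muscle and gland cells respond to transmitter released by another cell. One group consists of ligand-gated ion channels assembled from several subunits, each encoded by its own gene, and the other of G protein-coupled receptors (GPCRs). Most of these genes are restricted to differentiated neurons or muscle, and many are known Polycomb targets in ESCs, where PRC1, an E3 ligase built on RING1A or RING1B, ubiquitylates histone H2A and helps to keep developmental genes repressed.

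The 12 libraries held between 14668159 and 27016156 reads over transcript bodies. A normalised read count is the number of reads over a gene body divided by the size factor of the library (1 read was worth 0.770 to 1.49 normalised reads, depending on the library). The ESC label was checked against 12 ESC markers, all of which passed the filter on low counts. Nanog, a pluripotency transcription factor, had 6313, 5332 and 4332 normalised reads in untreated and 4165, 5021 and 4440.2 in OHT-treated PRC1CKO libraries, and 4623, 4151 and 4105 and 6037, 4237 and 6701 in the PRC1CPM libraries. Pou5f1, which encodes OCT4, ranged from means of 3126 ± 179.6 (SD, n = 3) in OHT-treated to 4734 ± 1365 in untreated PRC1CKO cells. Over gene bodies, Ring1 (RING1A) had 313, 204 and 166 normalised reads in untreated and 281, 251 and 229 in OHT-treated PRC1CKO libraries, and 179, 182 and 125 and 161, 111 and 148 in PRC1CPM libraries. Rnf2 (RING1B) had 1756, 1436 and 1385 untreated and 1489, 1565 and 1585 after OHT in PRC1CKO, and 1850.1, 1659 and 1578 and 1724, 1295 and 1513 in PRC1CPM. Neither gene differed between untreated and OHT-treated cells by the test used below, and a count over the whole gene body does not single out the deleted or exchanged exons, so that these values do not check the labels.

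A set of 4 GABA-A subunit genes in a row on chromosome 5 shows how neighbouring receptor genes differ, and the 250 bases before the start of each are given here from RefSeq (GRCm38.p6), 5′ to 3′ on the strand of the gene, with every CpG in capitals. CpG-rich starts are the sites at which Polycomb complexes are known to gather in ESCs. The windows are chr5:70842618-70842867 for Gabrg1, chr5:71095850-71096099 for Gabra2 and chr5:71658309-71658558 for Gabra4, all on the minus strand, and chr5:71699682-71699931 for Gabrb1 on the plus strand. The RefSeq start of Gabrb1 lies 84 bases from the start of its transcript in the table, and the other starts are the same.
Gabrg1: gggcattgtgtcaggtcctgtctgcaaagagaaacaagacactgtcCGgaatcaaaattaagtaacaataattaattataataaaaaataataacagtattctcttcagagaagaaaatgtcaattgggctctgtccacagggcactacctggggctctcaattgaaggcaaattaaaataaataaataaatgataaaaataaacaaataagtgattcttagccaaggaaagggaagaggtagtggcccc
Gabra2: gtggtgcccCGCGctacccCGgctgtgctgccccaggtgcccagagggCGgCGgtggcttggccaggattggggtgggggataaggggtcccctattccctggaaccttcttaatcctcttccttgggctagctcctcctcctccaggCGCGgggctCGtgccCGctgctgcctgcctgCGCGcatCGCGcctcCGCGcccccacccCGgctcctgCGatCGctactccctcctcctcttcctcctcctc
Gabra4: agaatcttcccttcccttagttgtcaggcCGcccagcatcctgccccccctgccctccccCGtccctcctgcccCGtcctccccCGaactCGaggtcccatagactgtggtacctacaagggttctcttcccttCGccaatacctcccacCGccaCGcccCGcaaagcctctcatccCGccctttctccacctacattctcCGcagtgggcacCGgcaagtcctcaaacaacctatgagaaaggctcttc
Gabrb1: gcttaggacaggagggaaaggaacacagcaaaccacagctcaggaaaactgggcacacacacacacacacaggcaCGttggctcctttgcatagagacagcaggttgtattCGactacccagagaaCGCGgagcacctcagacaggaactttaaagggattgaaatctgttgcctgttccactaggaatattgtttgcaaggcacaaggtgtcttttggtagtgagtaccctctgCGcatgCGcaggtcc
The windows hold 1 CpG in Gabrg1, 18 in Gabra2, 12 in Gabra4 and 6 in Gabrb1. Over 32851 RefSeq windows the median was 6, and 37.8% held 10 or more.

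After OHT, 39 of the 99 receptor genes were expressed at higher levels in PRC1CKO cells, where 16.5% of all genes tested were higher, and 2 were lower, where 3.09% of all genes tested were. In PRC1CPM cells 37 were higher (13.1% of all genes tested) and 1 was lower (1.4%). Both lines shared 34 of the higher genes, which made up 34.3% of the 99 and 42.0% of the 81 tested, where 11.6% of all genes tested were higher in both lines. The call required an adjusted p (limma, Benjamini-Hochberg over 16940 transcripts) under 0.05 and a fold change above 1.5 on the log2(normalised read count + 1) scale. Of the 99 genes, 81 passed the filter of at least 10 reads in at least 3 libraries and 18 were not tested. For 14 of the 81, fewer than 3 untreated libraries reached 10 reads, so that they passed only with the help of OHT-treated libraries. These were Gabra2, Gabrd, Gabrr1, Adra1a, Adra1b, Drd3, Drd5, Glra1, Glra2, Grm3, Chrm2, Htr1b, Htr2c and Htr7, and 12 of them were called higher in PRC1CKO and 8 in PRC1CPM cells. Without the 14 the numbers were 27 higher in PRC1CKO, 29 in PRC1CPM and 26 in both lines, of 67 tested. The median log2 fold change of the 81 was 0.95 in PRC1CKO and 1.22 in PRC1CPM cells, that of the 67 without these genes was 0.70 and 0.76, and that of all genes tested was 0.12 and 0.10. Each library was left out in turn, and 31 of the 39 genes in PRC1CKO and 23 of the 37 in PRC1CPM cells were called in all 12 of these fits. These are bulk libraries, so that a rise in a few cells and a rise in every cell cannot be told apart.

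**Figure D1:**
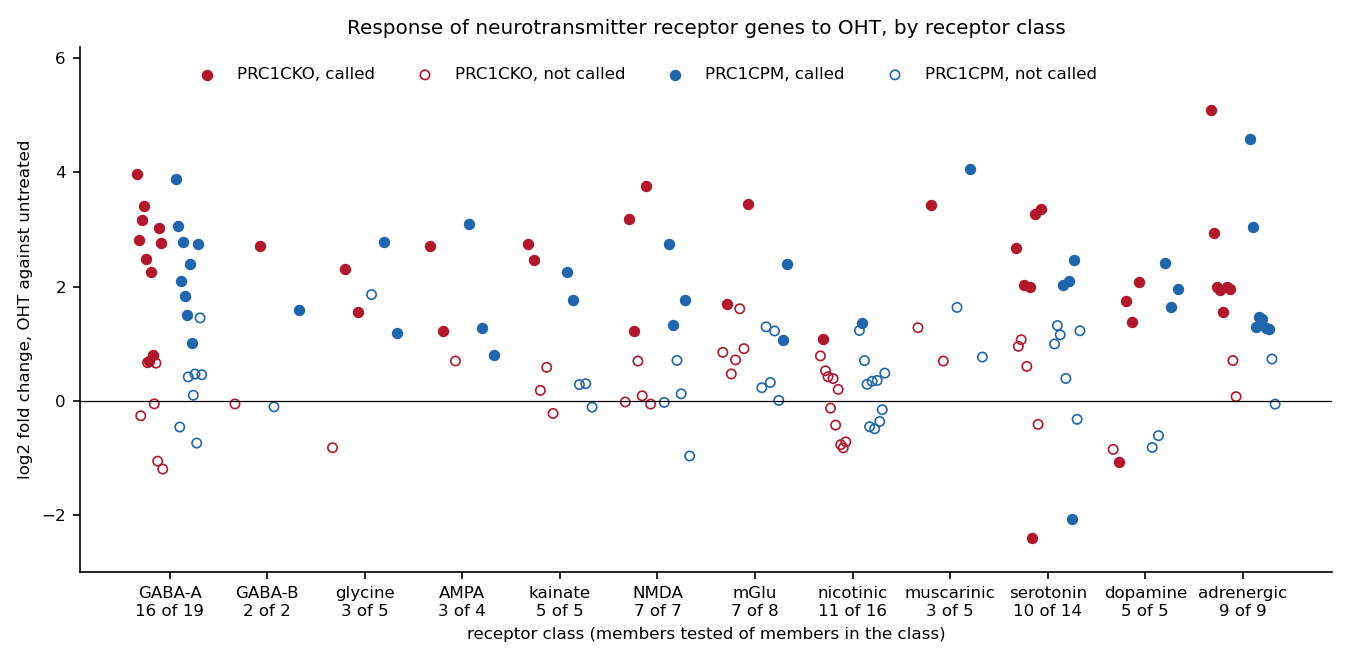
Log2 fold change after OHT (y axis) of the 81 receptor genes tested, by receptor class (x axis), in PRC1CKO (red) and PRC1CPM cells (blue), with called genes filled and others open, 1 point per gene. Most filled points lie above 0, and those below it are Htr5a and Drd2. Of the genes tested, 7 of 9 adrenergic and 1 of 11 nicotinic receptor genes were higher in both lines, beside 11.6% of all genes.

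The share of higher genes varied among the classes. With all libraries and the filter on low counts, adrenergic receptor genes had the highest share, with 7 of 9 higher in both lines (77.8%). Without OHT-treated replicate 1 or untreated replicate 3 of PRC1CPM this number was 4. With no filter, or without untreated replicate 1 of PRC1CPM, it was 5. In each of these settings another class had a higher share, such as dopamine with 3 of 5 with no filter. Without OHT-treated replicate 3 of PRC1CPM the adrenergic number was also 5, and this class kept the highest share. Dopamine receptor genes had 3 of 5, and 1 without OHT-treated replicate 1 or untreated replicate 3 of PRC1CKO. Of these, Adra1a, Adra1b, Drd3 and Drd5 passed the filter only with OHT-treated libraries, and without such genes the numbers were 5 of 7 adrenergic and 1 of 3 dopamine receptor genes tested. GABA-A subunit genes had 8 of 19, NMDA subunit genes 3 of 7, kainate subunit genes 2 of 5, AMPA subunit genes 2 of 4 and glycine receptor genes 2 of 5. Serotonin receptor genes had 3 of 14, mGlu receptor genes 1 of 8, GABA-B genes 1 of 2 and muscarinic receptor genes 1 of 5. Without genes that needed OHT-treated libraries, 6 of 13 GABA-A, 2 of 7 serotonin and 1 of 1 glycine receptor genes tested were higher in both lines, and no gene was lost from the counts of the other classes. The lowest share was that of the nicotinic subunit genes, with 1 of 16, or 1 of the 11 tested (9.09%). Of the mGlu genes 1 of 7 tested was higher in both lines (14.3%). Both shares were near that of all genes tested, of which 11.6% were higher in both lines. By type of receptor, 20 of 58 channel subunit genes and 19 of 41 GPCR genes were higher in PRC1CKO cells. In PRC1CPM cells 20 and 17 were. Over all genes tested the shares were 16.5% and 13.1%. Of the higher genes, 4 channel and 8 GPCR genes in PRC1CKO passed the filter only with OHT-treated libraries, and 3 and 5 in PRC1CPM. The difference between the types was not tested. The 37 genes tested and called in neither line had log2 fold changes from -1.20 (Gabrr2) to 1.61 (Grm6) in PRC1CKO and from -0.97 (Grin3b) to 1.86 (Glra1) in PRC1CPM cells. Single libraries also moved the small counts, to 0 for GABA-B without OHT-treated PRC1CPM replicate 1, to 1 for glycine without untreated PRC1CPM replicate 3, and to 2 for mGlu and muscarinic genes without untreated PRC1CKO replicate 1. With all libraries kept, mGlu genes also numbered 2 in DESeq2, with TMM factors and with the replicate number as a block, muscarinic genes 2 with the block, and glycine receptor genes 1 with a pseudocount of 0.1. The classes are small and differences between their shares were not tested.

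**Figure D2:**
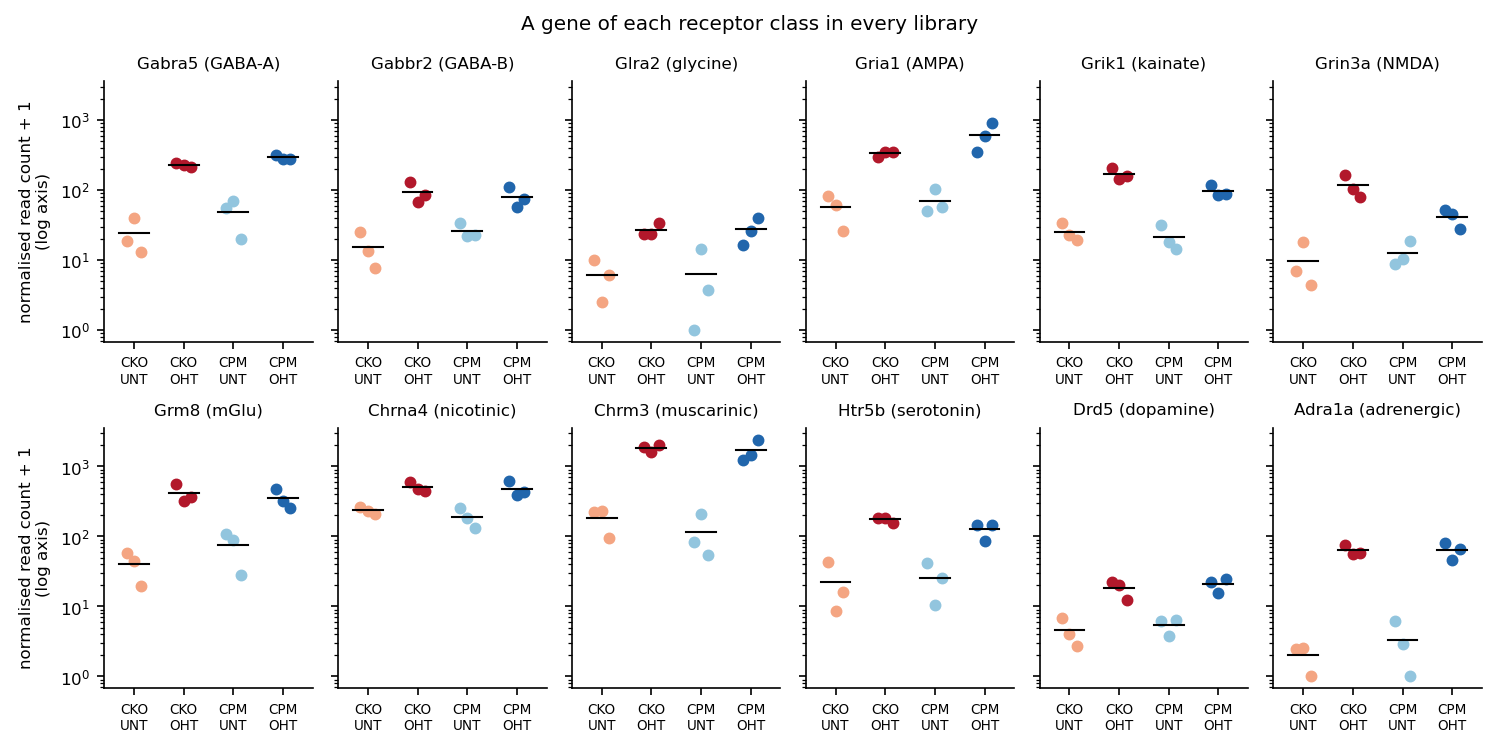
Normalised read count + 1 (log y axis) of 1 gene per receptor class in each of the 12 libraries (points), with the mean of the 3 libraries as a line, for untreated (UNT) and OHT-treated PRC1CKO (CKO) and PRC1CPM (CPM) cells (x axis). Each gene was chosen among those called higher in both lines, and its OHT-treated libraries lie above the untreated libraries of the same line. Since the choice used these calls, the separation is shown as a description and is no further support. Adra1a, Drd5 and Glra2 passed the filter only with OHT-treated libraries.

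GABA-A receptors are chloride channels for the inhibitory transmitter GABA. In PRC1CKO cells 10 of the 19 subunit genes were higher after OHT and in PRC1CPM cells 9. Gabra5, an alpha subunit of extrasynaptic receptors, lies at chr7:57407669-57510009 (GRCm38). It had 17.9, 39.2 and 11.8 normalised reads in untreated and 244, 224 and 209 in OHT-treated PRC1CKO libraries. For PRC1CPM libraries the Gabra5 counts were 53.7, 67.9 and 19.0 untreated and 319.5, 276 and 278 after OHT. The groups did not overlap in either line. Its log2 fold change was 3.41 (SE 0.39, adjusted p = 5.36e-10) in PRC1CKO and 2.79 (SE 0.39, adjusted p = 2.19e-07) in PRC1CPM cells, by limma, and Gm9962 on the other strand overlaps 2.22% of its body. Gabra4 rose by 3.17 (SE 0.30, adjusted p = 2.05e-12) and Gabrq, the theta subunit, by 3.02 (SE 0.42, adjusted p = 1.11e-07) in PRC1CKO cells. In PRC1CPM cells these genes had log2 fold changes of 2.10 and 2.74, and both were called. The GABA-A gene with the highest untreated level per kb of gene body was Gabre, the epsilon subunit, at 14.8 ± 4.91 normalised reads per kb (SD, n = 6 untreated libraries), which rose by 0.80 and 1.02 on the log2 scale. Gabrd, the delta subunit of extrasynaptic receptors, rose by 2.26 (SE 0.74, adjusted p = 0.0212) and 2.39 (SE 0.74, adjusted p = 0.0179). Without untreated replicate 1 of the line these values were 1.56 (adjusted p = 0.128) and 1.70 (adjusted p = 0.134), and each call was lost in 4 of 20 other settings. Gabrp, the pi subunit, was not called. The Gabre call in PRC1CKO was lost in 9 of 20 other settings, and without any 1 of 5 libraries of that line, with adjusted p from 0.0617 to 0.208 (all but untreated replicate 1), and that in PRC1CPM without untreated replicate 3 or OHT-treated replicate 1 of that line (adjusted p = 0.0836 and 0.0674).

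GABA-A genes lie in clusters, in which genes that rose stood beside genes that were not called. In the chromosome 5 cluster, whose sequences are given above, Gabra2 had 8.94, 8.47 and 6.76 normalised reads in untreated and 63.3, 57.4 and 67.2 in OHT-treated PRC1CKO libraries, Gabra4 83.4, 43.1 and 52.4 and 546, 474 and 556, and Gabrb1 22.3, 13.1 and 16.9 and 116, 79.6 and 106. For Gabrg1, at the end of the cluster and with 1 CpG in its window, the counts were 59.6, 22.3 and 35.5 untreated and 43.4, 24.1 and 40.1 after OHT. Untreated and OHT-treated libraries were apart for the first 3 genes and overlapped for Gabrg1. Log2 fold changes in PRC1CKO were 2.82 (SE 0.46, adjusted p = 2.62e-06) for Gabra2, 3.17 (SE 0.30, adjusted p = 2.05e-12) for Gabra4 and 2.47 (SE 0.41, adjusted p = 3.09e-06) for Gabrb1. In PRC1CPM cells they were 3.06 (SE 0.46, adjusted p = 1.12e-06), 2.10 (SE 0.30, adjusted p = 2.76e-07) and 1.83 (SE 0.41, adjusted p = 0.00065). For Gabrg1 the change and its 95% interval were -0.058 ± 0.88 in PRC1CKO and 0.094 ± 0.88 in PRC1CPM cells. A change of Gabrg1 inside these intervals could have been missed.

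On chromosome 11, Gabrb2, a beta subunit gene, had 0.66 (SE 0.44, adjusted p = 0.363) in PRC1CKO, which was not called, and 1.5 (SE 0.44, adjusted p = 0.0123) in PRC1CPM cells. The latter call was lost without untreated replicate 3 or OHT-treated replicate 1 of PRC1CPM (adjusted p = 0.225 and 0.111). Its neighbour Gabra6 had no read in any library. On chromosome 7, Gabra5, which was higher in both lines, lies beside Gabrg3, with 0.66 ± 0.71 and 0.47 ± 0.71 (log2 fold change and 95% interval). Gabrg3 was called in PRC1CKO with the replicate block (adjusted p = 0.00703) and without untreated replicate 1 (adjusted p = 0.0242). On the X chromosome Gabre and Gabrq were higher in both lines, and Gabra3 between them had -0.27 ± 0.66 and -0.46 ± 0.66. On chromosome 4, Gabrr1, a rho subunit, rose by 2.77 (SE 0.59, adjusted p = 0.000264) in PRC1CKO cells and had 1.45 (SE 0.59, adjusted p = 0.1) in PRC1CPM cells, which was called in DESeq2, in edgeR, without the genomic DNA correction, with the replicate block and with each line fitted alone (adjusted p from 0.0138 to 0.045), while its neighbour Gabrr2 had -1.20 ± 1.33 and 0.45 ± 1.33.

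**Figure D3:**
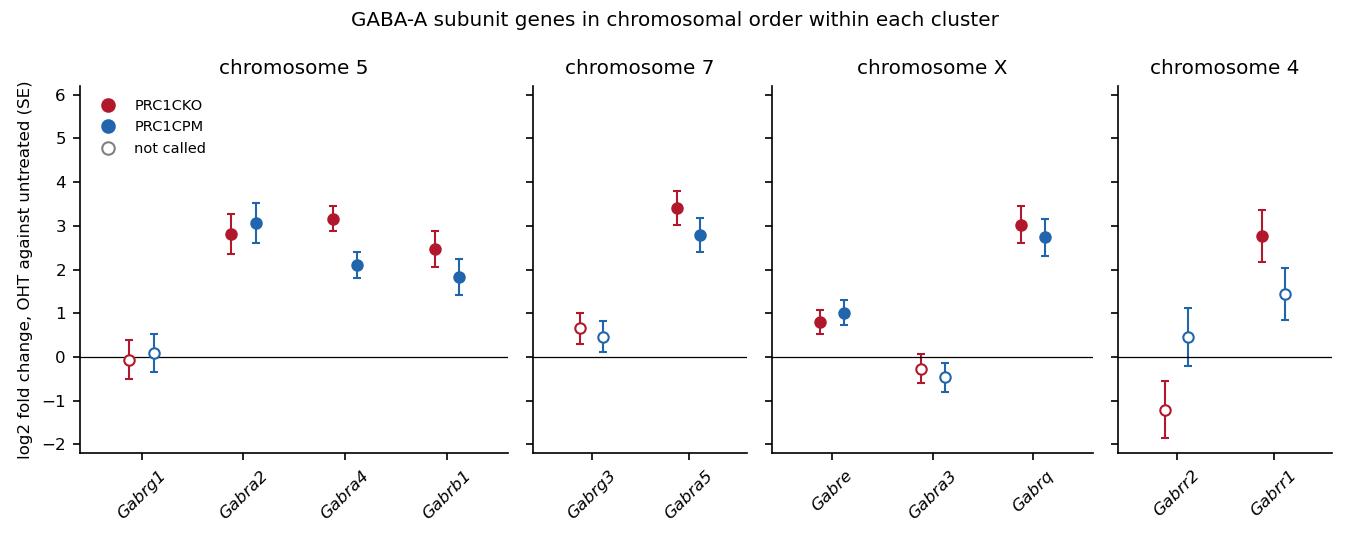
Log2 fold change after OHT with its SE (y axis) of 11 GABA-A subunit genes from 4 clusters, in chromosomal order (x axis), in PRC1CKO (red) and PRC1CPM cells (blue), filled where called. In each panel at least 1 gene was called higher in PRC1CKO and at least 1 other was not called, such as Gabrg1 beside Gabra2 on chromosome 5.

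GABA-B receptors are GPCRs made of 1 subunit from each of a pair of genes, which behaved differently. Gabbr2, whose product couples the receptor to its G protein, had 23.8, 12.3 and 6.76 normalised reads in untreated and 129, 65.7 and 82.9 in OHT-treated PRC1CKO libraries. PRC1CPM counts of Gabbr2 were 33.2, 20.7 and 21.7 untreated and 111, 55.7 and 72.3 after OHT, apart in both lines. Its log2 fold change was 2.72 (SE 0.44, adjusted p = 2.13e-06) in PRC1CKO and 1.59 (SE 0.44, adjusted p = 0.00697) in PRC1CPM cells, where the call was lost without OHT-treated replicate 1 (adjusted p = 0.0752). Gabbr1, which binds GABA, was at 3977 ± 902 (SD, n = 3) in untreated PRC1CKO cells and changed by -0.058 ± 0.43 in PRC1CKO and -0.11 ± 0.43 in PRC1CPM cells (log2, 95% interval).

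Glycine receptors are the other main inhibitory chloride channels. Glra2, an alpha subunit gene, had 8.94, 1.54 and 5.07 normalised reads in untreated and 22.6, 22.2 and 33.1 in OHT-treated PRC1CKO libraries, and 0, 13.2 and 2.71 and 15.4, 24.7 and 39.4 in PRC1CPM libraries. The groups were apart in both lines but the counts were low, and 1 untreated PRC1CPM library had no read. The log2 fold change of Glra2 was 2.31 (SE 0.67, adjusted p = 0.00847) in PRC1CKO and 2.78 (SE 0.67, adjusted p = 0.00186) in PRC1CPM cells, and the PRC1CKO call was lost with a pseudocount of 0.1 (adjusted p = 0.0963). Glrb, the shared beta subunit, had the highest untreated level of the class per kb of gene body, 2.33 ± 0.798 (SD, n = 6), and rose by 1.56 (SE 0.29, adjusted p = 3.79e-05) and 1.19 (SE 0.29, adjusted p = 0.00241). The PRC1CPM call of Glrb was lost without untreated replicate 3 of that line (adjusted p = 0.0655). Glra1, tested but not called, had log2 fold changes of -0.83 ± 1.5 in PRC1CKO and 1.86 ± 1.5 in PRC1CPM cells (95% interval), the latter called without the genomic DNA correction and with the replicate block (adjusted p = 0.0211 and 0.0272).

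The ionotropic glutamate receptors are cation channels of fast excitation, and 7 of their 16 subunit genes were higher in PRC1CKO and 8 in PRC1CPM cells. Gria1, the GluA1 subunit of AMPA receptors, had 80.4, 60.0 and 25.4 normalised reads in untreated and 294, 351 and 351 in OHT-treated PRC1CKO libraries. PRC1CPM counts of Gria1 were 49.9, 102 and 55.6 untreated and 348, 581 and 905 after OHT. The OHT-treated libraries lay above all untreated ones in both lines, and log2 fold changes were 2.71 (SE 0.35, adjusted p = 1.56e-08) and 3.09 (SE 0.35, adjusted p = 1.44e-09). Gria3 rose by 1.23 (SE 0.28, adjusted p = 0.000559) in PRC1CKO and 1.28 (SE 0.28, adjusted p = 0.000476) in PRC1CPM cells, from an untreated level per kb of 1.36 ± 0.485 (SD, n = 6). Gria4 had 1.35 ± 0.436, which did not differ beyond the spread. Gria4 was called only in PRC1CPM cells, at 0.80 (SE 0.26, adjusted p = 0.0271), but the value in PRC1CKO was close, at 0.69 (SE 0.26, adjusted p = 0.0506), and was called with the replicate block (adjusted p = 2.35e-05) and with each line fitted alone (adjusted p = 0.0223). The difference between the lines was not called. The PRC1CPM call was lost without untreated replicate 2 or 3 or OHT-treated replicate 1 or 2 of that line (adjusted p from 0.0524 to 0.174) and with no filter on low counts (adjusted p = 0.0518). Gria2, which sets the calcium permeability of AMPA receptors, was not tested, with means of 1.54 and 0.628 untreated and 4.23 and 12.8 after OHT in the same order of lines. With 2 reads untreated and 38 after OHT in PRC1CPM cells, the ratio for Gria2 was 15.1 (95% interval 3.91 to 129, exact binomial, counting error only).

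Of the 5 kainate receptor subunit genes, Grik1 and Grik2 were higher in both lines and the others were not called. Grik1, the GluK1 subunit, had 32.8, 21.5 and 18.6 normalised reads in untreated and 203, 141 and 157 in OHT-treated PRC1CKO libraries, and 30.7, 17.0 and 13.6 and 117, 85.0 and 87.6 in PRC1CPM libraries. These did not overlap, and log2 fold changes were 2.75 (SE 0.39, adjusted p = 1.38e-07) in PRC1CKO and 2.25 (SE 0.39, adjusted p = 1.69e-05) in PRC1CPM cells. Grik2 rose by 2.46 (SE 0.27, adjusted p = 1.47e-10) and 1.76 (SE 0.27, adjusted p = 1.36e-06). Grik3 was the receptor gene with the most reads, at 10708 ± 1746 normalised reads (SD, n = 3) in untreated PRC1CKO and 9383 ± 1115 in untreated PRC1CPM cells. It was at 45 ± 6.71 per kb (SD, n = 6) and changed by 0.18 ± 0.39 and 0.28 ± 0.39 on the log2 scale (95% interval), which was not called. Grik4 and Grik5 had untreated means of 1424 and 961 over 6 libraries and were not called either.

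NMDA receptors need glutamate together with glycine or D-serine. Grin3a, the glycine-binding GluN3A subunit, had 5.96, 16.9 and 3.38 normalised reads in untreated and 165, 102 and 79.4 in OHT-treated PRC1CKO libraries, and 7.67, 9.42 and 17.6 and 51.2, 44.8 and 26.3 in PRC1CPM libraries. All OHT-treated libraries lay above the untreated ones, and after OHT the PRC1CKO libraries lay above the PRC1CPM libraries. The log2 fold change of Grin3a was 3.76 (SE 0.50, adjusted p = 2.58e-08) in PRC1CKO and 1.76 (SE 0.50, adjusted p = 0.009) in PRC1CPM cells, where the call was lost without OHT-treated replicate 1 (adjusted p = 0.0627). Ppp3r2, a gene inside its body, shares 1.76% of its length. Grin2a, the GluN2A subunit, rose by 3.18 (SE 0.28, adjusted p = 5.63e-13) and 2.75 (SE 0.28, adjusted p = 1.40e-10), and Grin2b, the GluN2B subunit, by 1.22 (SE 0.27, adjusted p = 0.000526) and 1.33 (SE 0.27, adjusted p = 0.000238). Grin1, the subunit that every NMDA receptor contains, was at 24.9 ± 12.1 per kb (SD, n = 6) untreated, the highest of the class, and changed by -0.025 ± 0.73 and -0.032 ± 0.73 (log2, 95% interval). Grin2c, Grin2d and Grin3b were not called either, except Grin2c, which was called higher in both lines with the replicate block. The sign of the Grin1 change varied with the scaling and the library left out, and without untreated PRC1CKO replicate 2 it was called lower in that line, at -0.75 (adjusted p = 0.0481).

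The mGlu receptors are GPCRs for glutamate, and 2 of 8 genes were higher in each line. Grm8, a presynaptic receptor of group III, had 56.6, 43.1 and 18.6 normalised reads in untreated and 552, 316 and 366 in OHT-treated PRC1CKO libraries. PRC1CPM counts of Grm8 were 109, 86.7 and 27.1 untreated and 479, 317 and 256 after OHT, apart in both lines. Its log2 fold change was 3.45 (SE 0.38, adjusted p = 2.57e-10) in PRC1CKO and 2.39 (SE 0.38, adjusted p = 3.63e-06) in PRC1CPM cells. Grm3 was called in PRC1CKO, at 1.70 (SE 0.57, adjusted p = 0.0248), and not in PRC1CPM cells, at 1.29 (SE 0.57, adjusted p = 0.137), and Grm7 was called in PRC1CPM, at 1.07 (SE 0.37, adjusted p = 0.0387), and not in PRC1CKO cells, at 0.91 (SE 0.37, adjusted p = 0.0754). For neither gene was the difference between the lines called. The Grm3 call was lost without any of 4 PRC1CKO libraries (untreated replicate 3 and the OHT-treated ones) or the genomic DNA correction, and the Grm7 call in 9 of 20 other settings, and in PRC1CKO cells Grm7 was called in DESeq2, with TMM factors and with the replicate block (adjusted p = 0.0193, 0.0453 and 0.00446). Grm2 and Grm4 had untreated levels per kb of 5.42 ± 3.65 and 3.57 ± 0.450 (SD, n = 6), which did not differ beyond their spread. Grm2 was not called, at 0.85 ± 0.83 and 0.23 ± 0.83 (log2, 95% interval), except in PRC1CKO with the replicate block or without untreated replicate 1 (adjusted p = 0.00884 and 0.0211). Grm4, Grm5 and Grm6, the last of which serves retinal bipolar cells, were not called in either line.

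Nicotinic receptors are acetylcholine-gated channels of muscle and neurons, and 11 of their 16 genes were tested. Only Chrna4 was called after OHT, in both lines. This alpha4 subunit, which with beta2 forms the main nicotinic receptor of the brain, had 267, 231 and 211 normalised reads in untreated and 600.2, 469 and 444 in OHT-treated PRC1CKO libraries, and 257, 181 and 131 and 628, 386 and 426 in PRC1CPM libraries. The groups did not overlap, and log2 fold changes were 1.09 (SE 0.28, adjusted p = 0.00225) and 1.35 (SE 0.28, adjusted p = 0.000208). The muscle-type genes Chrnb1, Chrnd, Chrng and Chrne had 0.39 ± 0.62, -0.77 ± 0.95, -0.72 ± 1.16 and -0.83 ± 1.35 in PRC1CKO cells (log2, 95% interval). In PRC1CPM cells they had 0.34 ± 0.62, -0.37 ± 0.95, 0.48 ± 1.16 and -0.16 ± 1.35, none was called in either line, and Chrna1 was not tested. Chrna7, the subunit of homomeric receptors, Chrna9, Chrna10 and Chrnb2 were not called. The highest untreated levels of the class per kb were those of Chrnb1, Chrna4 and Chrna9, at 13.6 ± 3.49, 12.6 ± 3.00 and 12.4 ± 3.49 (SD, n = 6), which did not differ beyond their spread and stood in another order in each line. In the cluster of the ganglionic subunits on chromosome 9, Chrna5 had 0.52 ± 0.64 in PRC1CKO and 0.70 ± 0.64 in PRC1CPM cells, and Chrnb4 0.20 ± 0.68 and 0.35 ± 0.68. Chrna5 was called higher in PRC1CPM with the replicate block (adjusted p = 0.00235), without the genomic DNA correction (adjusted p = 0.0196), and without untreated replicate 1 or OHT-treated replicate 2 of that line (adjusted p = 0.0342 and 0.0229). Chrna3 between them was not tested and had means of 1.69 untreated and 7.21 after OHT in PRC1CKO, and 1.76 and 6.42 in PRC1CPM cells.

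Of the muscarinic receptors, GPCRs for acetylcholine, Chrm3 was called in both lines. It encodes the receptor that drives smooth muscle contraction and gland secretion. Chrm3 had 220.5, 234 and 93.0 normalised reads in untreated and 1868, 1606 and 2032 in OHT-treated PRC1CKO libraries, and 83.1, 208 and 52.9 and 1239, 1479.8 and 2401 in PRC1CPM libraries. Lowest OHT-treated libraries were several times above the highest untreated ones in each line, with log2 fold changes of 3.43 (SE 0.32, adjusted p = 2.85e-12) and 4.06 (SE 0.32, adjusted p = 9.85e-14). Chrm4, with the highest untreated level per kb of this class, 30.8 ± 7.45 (SD, n = 6), had 0.69 ± 0.59 and 0.76 ± 0.59 (log2, 95% interval) and was not called. With the replicate block Chrm4 was called higher in both lines (adjusted p = 0.000425 and 0.00011), and in PRC1CPM also in edgeR, with TMM factors and without the genomic DNA correction. Chrm2, the receptor of the heart, was not called.

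Serotonin receptors are GPCRs except for the 5-HT3 channel (Htr3a and Htr3b), and 5 of 14 genes were higher in PRC1CKO and 3 in PRC1CPM cells. Htr5b, of the 5-HT5 family, had 41.7, 7.70 and 15.2 normalised reads in untreated and 185, 183 and 155 in OHT-treated PRC1CKO libraries, and 40.9, 9.42 and 24.4 and 145, 85.0 and 146 in PRC1CPM libraries. The groups were apart, with log2 fold changes of 3.27 (SE 0.45, adjusted p = 6.87e-08) and 2.46 (SE 0.45, adjusted p = 4.22e-05). Htr7, a receptor coupled to Gs, was called in PRC1CKO, at 3.36 (SE 0.60, adjusted p = 1.56e-05), and not in PRC1CPM cells, at 1.22 (SE 0.60, adjusted p = 0.209). The same held for Htr1b, at 2.68 (SE 0.60, adjusted p = 0.000541) and 0.99 (SE 0.60, adjusted p = 0.367). An antisense transcript, D430036J16Rik, overlaps 53.7% of the body of Htr1b, and whether strand was used in counting is not stated in the sources used here, so reads of the pair cannot be told apart. Untreated levels per kb were 4.71 ± 2.93 for Htr1b, 4.30 ± 1.98 for Htr3a and 4.11 ± 1.13 for Htr6 (SD, n = 6), which did not differ beyond their spread. Htr4 rose by 2.00 (SE 0.35, adjusted p = 1.10e-05) in PRC1CKO and 2.09 (SE 0.35, adjusted p = 9.45e-06) in PRC1CPM cells, and Htr2c by 2.03 (SE 0.62, adjusted p = 0.0133) and 2.02 (SE 0.62, adjusted p = 0.0181). The Htr2c call was lost without OHT-treated replicate 1 or 3 in PRC1CKO (adjusted p = 0.0609 and 0.0538), and in PRC1CPM without untreated replicate 2 or 3 or OHT-treated replicate 1 or 2 (adjusted p from 0.0647 to 0.151). Htr3a had 0.60 ± 0.81 and 0.39 ± 0.81 (95% interval), and Htr1d, Htr1f and Htr6 were not called. With the replicate block Htr1f was called higher in both lines and Htr1d in PRC1CPM cells. Htr2a, the receptor through which classical hallucinogens act, was not tested and had no read in any of the 6 untreated libraries. After OHT it had 10.8, 7.40 and 5.23 normalised reads in PRC1CKO and 7.72, 9.28 and 4.38 in PRC1CPM libraries, at least 8.23-fold and 6.13-fold higher than the limit of 3 reads over the untreated group.

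Dopamine receptors are GPCRs, D1-like (Drd1 and Drd5) or D2-like (Drd2, Drd3 and Drd4), and 3 of 5 genes were higher in both lines. Drd5 had 5.96, 3.08 and 1.69 normalised reads in untreated and 21.7, 19.4 and 11.3 in OHT-treated PRC1CKO libraries, and 5.11, 2.83 and 5.42 and 21.2, 14.7 and 24.1 in PRC1CPM libraries. These low counts did not overlap, and log2 fold changes were 2.08 (SE 0.60, adjusted p = 0.00857) and 1.95 (SE 0.60, adjusted p = 0.0186). The Drd5 call was lost in PRC1CKO without untreated replicate 3 or OHT-treated replicate 1 (adjusted p = 0.0646 and 0.0645). In PRC1CPM it was lost with a pseudocount of 0.1 (adjusted p = 0.0529) and without untreated replicate 2 or OHT-treated replicate 1 or 3 (adjusted p from 0.0744 to 0.0965). Drd3 rose by 1.74 (SE 0.53, adjusted p = 0.0133) and 2.42 (SE 0.53, adjusted p = 0.000621), and Drd4 by 1.38 (SE 0.41, adjusted p = 0.0111) and 1.64 (SE 0.41, adjusted p = 0.00297). In PRC1CKO the Drd4 call was lost without untreated replicate 2 or 3 or OHT-treated replicate 1 (adjusted p from 0.0725 to 0.0991), and the Drd3 call without OHT-treated replicate 3 (adjusted p = 0.0827). Drd1, the main receptor of the direct striatal pathway, was not called in either line. Untreated levels per kb of Drd4 and Drd1 were 11 ± 5.19 and 6.01 ± 2.70 (SD, n = 6). Drd4 had the higher mean in each line, at 9.94 against 4.20 in PRC1CKO and 12.2 against 7.83 in PRC1CPM cells. This difference was not tested.

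Adrenergic receptors are GPCRs for adrenaline and noradrenaline. All 9 were tested, and the 6 alpha receptor genes and Adrb1 were higher in both lines. Adra1a, which encodes the alpha1A receptor of blood vessels and the urinary tract, had 1.49, 1.54 and 0 normalised reads in untreated and 74.1, 55.5 and 57.6 in OHT-treated PRC1CKO libraries, and 5.11, 1.88 and 0 and 79.2, 44.8 and 65.7 in PRC1CPM libraries. Its groups were far apart in both lines, with untreated libraries at or near 0. Adra1a had the largest fitted change of all receptor genes, 5.09 (SE 0.61, adjusted p = 1.99e-09) in PRC1CKO and 4.59 (SE 0.61, adjusted p = 7.13e-08) in PRC1CPM cells. With 3 reads in untreated and 208 in OHT-treated PRC1CKO libraries, the ratio was 65.6 (95% interval 22.1 to 321, exact binomial, counting error only), and the fitted value depends on the pseudocount. Adra1b rose by 2.94 (SE 0.71, adjusted p = 0.00139) and 3.04 (SE 0.71, adjusted p = 0.00132), Adra2c by 1.99 (SE 0.43, adjusted p = 0.000329) and 1.28 (SE 0.43, adjusted p = 0.0348), and Adra1d by 1.99 (SE 0.43, adjusted p = 0.000278) and 1.30 (SE 0.43, adjusted p = 0.0286). The body of Adra1d lies inside that of a transcript listed as Mir3098 on the same strand, so its reads cannot be told apart from reads of that transcript. Adra2a, the presynaptic autoreceptor, rose by 1.93 (SE 0.39, adjusted p = 0.000123) and 1.47 (SE 0.39, adjusted p = 0.00518), Adra2b by 1.55 (SE 0.33, adjusted p = 0.000231) and 1.44 (SE 0.33, adjusted p = 0.000943), and Adrb1, the cardiac beta1 receptor, by 1.97 (SE 0.39, adjusted p = 0.000102) and 1.25 (SE 0.39, adjusted p = 0.0209). Without OHT-treated replicate 1 of PRC1CPM the calls of Adra2c, Adra1d and Adrb1 in that line were lost (adjusted p = 0.157, 0.207 and 0.166), and without untreated replicate 3 those of Adra2c, Adra1d and Adra2a (0.277, 0.111 and 0.0989). Over all 20 other settings the PRC1CPM call was lost in 6 for Adra2c, 4 for Adra1d, 3 for Adrb1 and 1 for Adra2a. Adrb3, a receptor of fat cells, was not called, at 0.070 ± 0.50 and -0.062 ± 0.50 (log2, 95% interval). Adrb3 had the highest untreated level per kb of gene body of its class, 151 ± 18.5 normalised reads (SD, n = 6), and the direction of its change depended on the scaling.

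Htr5a and Drd2 were the genes called lower. Htr5a, a relative of Htr5b, had 20.9, 22.3 and 30.4 normalised reads in untreated and 1.81, 7.40 and 3.49 in OHT-treated PRC1CKO libraries, and 15.3, 3.77 and 8.13 and 1.93, 0 and 2.19 in PRC1CPM libraries. OHT-treated libraries lay below untreated ones in both lines, and log2 fold changes were -2.41 (SE 0.69, adjusted p = 0.00698) and -2.08 (SE 0.69, adjusted p = 0.0296). Without the first OHT-treated PRC1CKO library the fall in that line was no longer called (adjusted p = 0.0603), nor was the fall in PRC1CPM without untreated replicate 1 or 3 or OHT-treated replicate 2 of that line (adjusted p = 0.166, 0.0723 and 0.165). Drd2, the D2 receptor, had 50.6, 77.0 and 68.5 and 30.7, 27.8 and 31.4 in PRC1CKO libraries, and 63.9, 62.2 and 77.3 and 46.3, 40.2 and 44.9 in PRC1CPM libraries. Its log2 fold change was -1.08 (SE 0.38, adjusted p = 0.0348) in PRC1CKO and -0.61 (SE 0.38, adjusted p = 0.378) in PRC1CPM cells, which was not called. The PRC1CKO call was lost in 5 of the 6 fits without one of its libraries, all but that without the first untreated library, with adjusted p from 0.0866 to 0.157.

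Leaving out 1 untreated library moved the fold change of some called genes by over 1.5 times. In PRC1CPM cells Glra2 was at 1.83 without replicate 1 and 3.74 without replicate 2, Adra1b at 2.16 and 3.85 without the same libraries, Adra1a at 5.20 without replicate 1 and 3.90 without replicate 3, and Grm8 at 1.79 without replicate 3 (log2). In PRC1CKO cells Adra1b was at 3.63 without replicate 1 and 2.23 without replicate 2, Gabrr1 at 3.51 and 1.86 without the same libraries, and Htr7 at 4.18 without replicate 1 and 2.52 without replicate 3. Htr1b and Htr5b were at 3.33 and 3.88 without replicate 1. With the replicate number as a block, Grin2c and Htr1f were also called higher in both lines, Chrm2, Chrna10, Grm5 and Htr1d in PRC1CPM and Grm6 in PRC1CKO cells, and Gabrp was called lower in PRC1CKO cells, at -1.06 (adjusted p = 0.031). The Grin2c values were 0.69 (adjusted p = 0.00116) and 0.70 (adjusted p = 0.0012) with the block.

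Whether the response to OHT differed between the lines was tested as the difference of the log2 fold changes. No receptor gene was called in limma, where 0.0236% of all genes tested were, and 4 receptor genes had an unadjusted p under 0.05. DESeq2 and edgeR on the recovered reads also called none, with 4 and 5 at an unadjusted p under 0.05. With the replicate number as a block, limma called 3, where 1.91% of all genes tested were called, each with the smaller rise in PRC1CPM, namely Grin3a at -2.0 (adjusted p = 0.0248), Gabra4 at -1.07 (adjusted p = 0.0097) and Grm8 at -1.05 (adjusted p = 0.0405). Differences without the block, PRC1CPM minus PRC1CKO, ranged from -2.14 for Htr7 to 2.69 for Glra1. The 95% interval of the difference reached a median of 1.13 on the log2 scale to either side, and 77 of the 81 intervals held 0. Without the block, differences inside these intervals could have been missed. Across the 81 genes the log2 fold changes of the lines had a Pearson correlation of 0.874, and across all 16940 genes of 0.877, given as a description, since genes are not independent replicates.

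**Figure D4:**
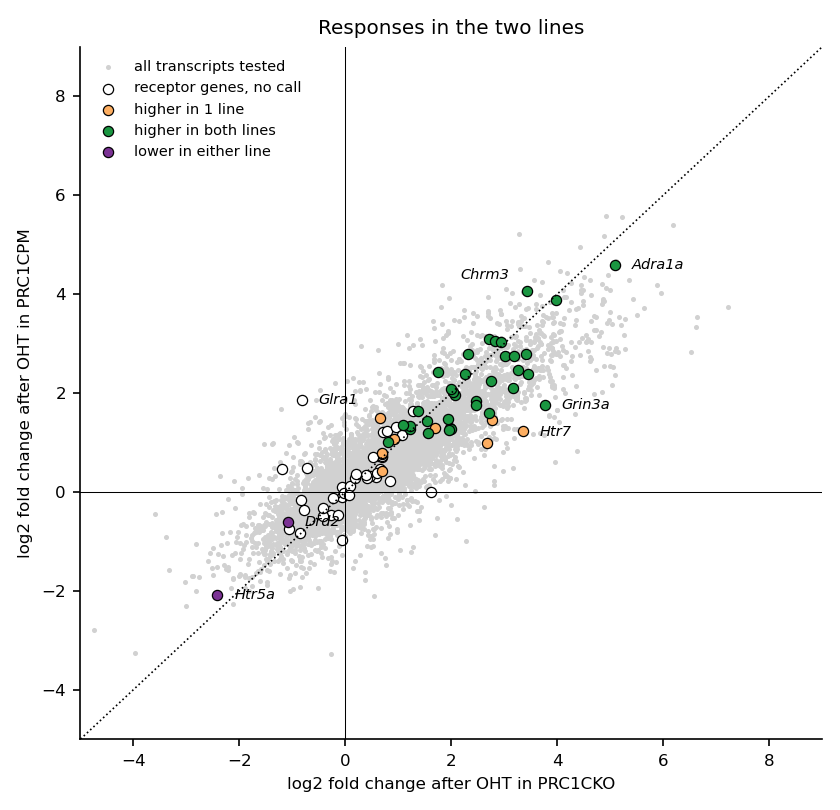
Log2 fold change after OHT in PRC1CKO (x axis) and PRC1CPM cells (y axis) of the 81 receptor genes tested, coloured by call, over all 16940 transcripts tested (grey), with the line of equal change dotted. The 34 genes higher in both lines reach 5.09 and 4.59 at Adra1a, and Htr5a is the lowest in both lines.

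The levels themselves differed between the lines for a few genes. After OHT, 1 gene was higher in PRC1CPM than in PRC1CKO cells (1.25% of all genes tested) and 1 was lower (0.218%). Before OHT the numbers were 1 higher (2.21%) and 1 lower (0.478%). With the replicate number as a block, 6 were higher (6.68% of all genes tested) and 2 lower (1.37%) after OHT, and 13 (9.63%) and 2 (1.49%) before. Grin2a had 334, 463 and 157 normalised reads in untreated and 2779.6, 2648 and 2483 in OHT-treated PRC1CKO libraries, and 79.3, 155 and 111 and 833, 856 and 590.4 in PRC1CPM libraries. PRC1CPM libraries lay below PRC1CKO libraries in each treatment, with log2 differences of -1.38 (SE 0.28, adjusted p = 0.00209) untreated and -1.81 (SE 0.28, adjusted p = 4.09e-05) after OHT, and the difference between the lines' responses to OHT was -0.43 ± 0.81 (95% interval), which was not called. Chrne, the epsilon subunit of the adult muscle receptor, had 2.98, 3.08 and 3.38 and 3.62, 0 and 1.74 in PRC1CKO libraries, and 29.4, 9.42 and 17.6 and 21.2, 9.28 and 17.5 in PRC1CPM libraries. It was higher in PRC1CPM cells after OHT, by 2.79 (SE 0.67, adjusted p = 0.0147), and had 2.12 (SE 0.67, adjusted p = 0.073) before OHT. With the replicate block the difference before OHT was called too (limma, adjusted p = 0.0132). The call after OHT was lost without the second OHT-treated PRC1CKO library (adjusted p = 0.212) and without replicate 1 or 3 of OHT-treated PRC1CPM (0.144 and 0.0832), and 4930544D05Rik on the other strand overlaps 23.1% of the gene body. Gabrr1 was higher in untreated PRC1CPM cells by 2.12 (SE 0.59, adjusted p = 0.0349), with 8.94, 0 and 3.38 normalised reads in PRC1CKO and 17.9, 15.1 and 10.8 in PRC1CPM libraries. Without the second untreated PRC1CKO library, which had no read, the value was 1.22 (adjusted p = 0.465), and it also missed the threshold without the third untreated PRC1CKO library (0.068), the first untreated PRC1CPM library (0.0707) or the second OHT-treated PRC1CPM library (0.0513), in DESeq2 (0.0734) and edgeR (0.0988), and without the genomic DNA correction (0.0502), with no filter on low counts (0.0751) or with a pseudocount of 0.1 (0.0534).

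Before treatment, 34 of the 99 genes had a mean under 10 normalised reads over the 6 untreated libraries, 37 had 10 to 100 and 28 had over 100. All 18 genes not tested were among the 34, of which 16 were tested. Genes higher in both lines numbered 8 of 16, 18 of 37 and 8 of 28 tested, or 50%, 48.6% and 28.6%. Among all transcripts tested in the same ranges the shares were 31.2%, 22.3% and 7.08%. In the lowest range the filter favoured genes with more reads after OHT, so that its share supports nothing. The untreated level is part of the fold change, so these shares are a description. Summed over the 99 genes, the normalised read count was 25687 ± 4986 (SD, n = 3) in untreated and 38296 ± 3543 in OHT-treated PRC1CKO cells, and 25476 ± 3530 and 36926 ± 6111 in PRC1CPM cells. Grik3 held a large part of each sum, and without it the sums were 14979 ± 3316 and 26252 ± 2646, and 16093 ± 2523 and 25481 ± 4377. Per kb of gene body, Adrb3 at 151 ± 18.5 (SD, n = 6) and Gabbr1 at 140.1 ± 28.9 had the highest untreated levels over all classes, and did not differ beyond their spread. Grik3, Chrm4 and Grin1, whose values are given with their classes, lay below both. The 18 genes not tested included Gabra6 and Gabrr3, Glra3 and Glra4, Gria2, Chrm1 and Chrm5, Chrna1, Chrna2, Chrna3, Chrna6 and Chrnb3, and Htr1a, Htr2a, Htr2b and Htr3b.

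CpG content was not used in choosing the genes. Within 1000 bases centred on the start site (GRCm38), the 99 genes had a median of 40 CpG and all transcripts a median of 48. Receptor genes higher in both lines had a median of 50.5 (quartiles 36.5 and 72.8, n = 34), those tested and called in neither line had 40 (19 and 69, n = 37), and those not tested had 14.5 (10.5 and 23, n = 18). Of the 51 genes with 40 or more CpG 49 were tested, and 23 were higher in both lines (46.9% of those tested). Of the 48 with fewer 32 were tested, and 11 were higher in both lines (34.4% of those tested). Without the genes that passed the filter only with OHT-treated libraries, the numbers were 19 of 41 (46.3%) and 7 of 26 (26.9%). For all transcripts tested the shares were 11.9% and 10.9%, or 10.7% and 9.79% without such transcripts, and the difference between the receptor shares was not tested. The ranges overlapped widely, since genes higher in both lines had from 12 CpG (Drd3 and Glra2) to 143 (Gabbr2), or from 18 without the genes that needed OHT-treated libraries. In the chromosome 5 cluster the 1000-base windows held 57 CpG in Gabra2, 53 in Gabra4, 24 in Gabrb1 and 19 in Gabrg1. On the X chromosome Gabre and Gabrq held 57 and 45, and Gabra3, not called, 19. Other clusters were not ordered in this way. Gabrg3, not called, held 72 beside 81 in Gabra5, and Gabrr1, higher in PRC1CKO, 13 beside 8 in Gabrr2. Drd2, called lower in PRC1CKO, held 87.

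Across all classes, 33 of the 99 genes lay within 500 kb of another, in 12 clusters. In 7 clusters at least 1 gene was higher in both lines, and in none of the 12 were all. On chromosome 3, Glrb was higher in both lines and Gria2 was not tested, and on chromosome 14 Adra1a was higher and Chrna2 was not tested. The chromosome 1 cluster of Chrnd and Chrng and the chromosome 8 cluster of Adrb3, Chrnb3 and Chrna6 had no called gene. Drd2, called lower in PRC1CKO, lies within 500 kb of Htr3a, which was not called, and of Htr3b, which was not tested.

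Genes of the same signalling steps outside the receptors were read from lists, beside 16.5% of all genes tested higher in PRC1CKO and 13.1% in PRC1CPM cells. The shares of all genes tested that were lower were 3.09% and 1.4%. Of 20 genes measured for transmitter synthesis and vesicle loading, 17 were tested, and 8 were higher and 1 lower in PRC1CKO and 4 higher in PRC1CPM cells. Of the 17, 3 passed the filter only with OHT-treated libraries, and all 3 were called higher in PRC1CKO and 1 in PRC1CPM cells. Slc18a2, the vesicular monoamine transporter, rose by 2.62 (SE 0.32, adjusted p = 4.86e-09) on the log2 scale in PRC1CKO and 2.62 (SE 0.32, adjusted p = 1.21e-08) in PRC1CPM cells. Th, tyrosine hydroxylase, rose by 2.41 (SE 0.70, adjusted p = 0.00839) in PRC1CKO and was not called in PRC1CPM cells, at 1.84 (SE 0.70, adjusted p = 0.0711). Pnmt, which makes adrenaline, had 2 untreated reads in each line, and its ratio was 11.4 (95% interval 2.82 to 99.1) in PRC1CKO and 15.5 (4.02 to 133) in PRC1CPM cells, counting error only. Ddc, which decarboxylates the precursors of dopamine and serotonin, fell in PRC1CKO cells, at -0.95 (SE 0.27, adjusted p = 0.00673). Of 19 genes of transmitter uptake and breakdown, 12 were higher in PRC1CKO, and 9 were higher and 1 lower in PRC1CPM cells. Among them 1 passed the filter only with OHT-treated libraries, and it was called higher in both lines. Slc6a11, a GABA transporter, rose by 4.46 (SE 0.36, adjusted p = 3.37e-14) and 4.03 (SE 0.36, adjusted p = 3.73e-12), Slc5a7, the choline transporter, by 4.36 (SE 0.57, adjusted p = 2.16e-08) and 2.15 (SE 0.57, adjusted p = 0.00516), and Slc6a4, the serotonin transporter, by 3.35 (SE 0.43, adjusted p = 1.70e-08) and 2.53 (SE 0.43, adjusted p = 1.49e-05). Slc6a9, a glycine transporter, fell in PRC1CPM cells, at -0.85 (SE 0.25, adjusted p = 0.0116). Of 20 other settings, the PRC1CPM call was lost in 3 for Slc5a7 and 2 for Slc6a9, and the PRC1CKO call of Th in 2. With 1 library left out, PRC1CKO values ranged from 3.33 to 4.99 for Slc5a7 and from 1.71 to 3.11 for Th.

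Receptor scaffolds and auxiliary subunits had 37 of 40 genes tested, with 10 higher and 2 lower in PRC1CKO, and 11 higher in PRC1CPM cells. Of the 37, 1 passed the filter only with OHT-treated libraries, and it was called higher in both lines. Nlgn1, a postsynaptic adhesion protein, rose by 5.20 (SE 0.32, adjusted p = 2.14e-18) and 3.38 (SE 0.32, adjusted p = 1.47e-11), Shisa9, an AMPA receptor auxiliary subunit, by 4.58 (SE 0.42, adjusted p = 1.5e-12) and 2.86 (SE 0.42, adjusted p = 8.09e-07), and Neto1, an auxiliary subunit of kainate receptors, by 2.90 (SE 0.49, adjusted p = 6.34e-06) and 3.39 (SE 0.49, adjusted p = 5.86e-07). Kctd12b, a relative of the GABA-B auxiliary subunits, and Lhfpl4, which holds GABA-A receptors at inhibitory synapses, were lower in PRC1CKO cells, at -1.20 (SE 0.37, adjusted p = 0.0133) and -1.05 (SE 0.36, adjusted p = 0.0283), and these calls were lost in 2 and 6 of 20 other settings. Among 20 transmitter receptors that the symbols above do not cover (delta glutamate, histamine, purine, adenosine and cannabinoid receptors among them), 17 were tested, and 7 were higher and 1 lower in PRC1CKO, and 6 and 1 in PRC1CPM cells. Grid1, a delta glutamate receptor, rose by 4.13 (SE 0.25, adjusted p = 1.81e-18) in PRC1CKO cells, and Adora1, the adenosine A1 receptor, by 2.51 (SE 0.39, adjusted p = 1.16e-06). Hrh3, the histamine autoreceptor, fell in PRC1CKO at -1.95 (SE 0.40, adjusted p = 0.000144), and P2rx3 in PRC1CPM cells at -1.05 (SE 0.32, adjusted p = 0.0184), a call lost in 4 of 20 other settings. Of 9 genes of the REST complex, which represses neuronal genes outside neurons, Rest itself was lower in PRC1CKO cells, at -0.72 (SE 0.21, adjusted p = 0.0109), and had -0.53 (SE 0.21, adjusted p = 0.0965) in PRC1CPM cells, and no other was called. Without untreated PRC1CKO replicate 1 the Rest call was lost (adjusted p = 0.0649).

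Markers of differentiated cells were read beside these changes. Of all genes tested, 16.5% were higher and 3.09% lower in PRC1CKO, and 13.1% and 1.4% in PRC1CPM cells. Of 10 neural progenitor markers 9 were tested, and 6 were higher and 1 lower in PRC1CKO, and 3 and 1 in PRC1CPM cells. For 5 of the 9 the filter was passed only with OHT-treated libraries, and 4 of these were among the 6 and 2 among the 3. Zic1 rose by 5.35 (SE 0.47, adjusted p = 3.81e-13) and 4.29 (SE 0.47, adjusted p = 7.05e-10) and Pax6 by 3.06 (SE 0.39, adjusted p = 8.21e-09) and 1.28 (SE 0.39, adjusted p = 0.0148), whereas Dll1 was lower, at -1.17 (SE 0.28, adjusted p = 0.00133) and -1.43 (SE 0.28, adjusted p = 0.000138). The summed level of this list, led by Nes, lay between 1196 and 2388 normalised reads before OHT and between 2384 and 2640 after it in PRC1CKO libraries, and 1808 to 3135 and 1787 to 3004 in PRC1CPM libraries. Of 14 neuron markers 13 were tested, and 4 were higher and 3 lower in PRC1CKO, and 4 and 1 in PRC1CPM cells. Of these markers 1 passed the filter only with OHT-treated libraries, and it was called higher in both lines. Isl1 rose by 3.05 (SE 0.49, adjusted p = 1.92e-06), Rbfox3 by 1.39 (SE 0.27, adjusted p = 5.22e-05) and Nefm by 1.28 (SE 0.41, adjusted p = 0.0197) in PRC1CKO cells, while Snap25, a synaptic SNARE protein, was at -1.99 (SE 0.37, adjusted p = 3.77e-05), Tubb3 at -0.71 (SE 0.25, adjusted p = 0.037) and Stmn2 at -0.59 (SE 0.22, adjusted p = 0.0419). In PRC1CKO the call was lost in 7 of 20 other settings for Stmn2, 6 for Tubb3, 4 for Nefm and 3 for Map2. In PRC1CPM the higher call was lost in 10 for Map2, 6 for Nefm, 5 for Isl1 and 2 for Rbfox3. The summed neuron list, led by Stmn2, was 8732 to 13779 in untreated and 8232 to 10616 in OHT-treated PRC1CKO libraries, and 8640 to 11478 and 7651 to 12519 in PRC1CPM libraries.

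Among markers of other lineages, 4 of 6 endoderm markers were higher in PRC1CKO and 5 in PRC1CPM cells, with Gata6 at 2.96 (SE 0.32, adjusted p = 1.20e-10) and 2.26 (SE 0.32, adjusted p = 2.91e-07) and summed levels of 214 to 643 untreated and 1761 to 2389 after OHT in PRC1CKO libraries, and 203 to 229.9 and 626 to 984 in PRC1CPM libraries. Of the 5 endoderm markers tested, 1 passed the filter only with OHT-treated libraries, and it was called higher in both lines. Beside the counts of these lists, 16.5% of all genes tested were higher and 3.09% lower in PRC1CKO. In PRC1CPM cells the shares were 13.1% and 1.4%. Of 6 mesoderm markers 5 were tested and 4 were higher in each line, with Hand1 at 2.68 (SE 0.48, adjusted p = 1.40e-05) and 1.97 (SE 0.48, adjusted p = 0.00182). With 1 library left out, the PRC1CKO value of Hand1 ranged from 2.01 to 3.41. Summed mesoderm levels, led by Kdr, were 202 to 483 untreated and 714 to 1026 after OHT in PRC1CKO, and 259 to 492 and 569.8 to 1148 in PRC1CPM libraries. Of 8 skeletal muscle markers 6 were tested, and 1 was higher and 2 lower in PRC1CKO, and 2 lower in PRC1CPM cells. The lower genes were Acta1 at -1.84 (SE 0.44, adjusted p = 0.000972) and -1.45 (SE 0.44, adjusted p = 0.0148) and Ttn at -1.42 (SE 0.27, adjusted p = 5.47e-05) and -0.93 (SE 0.27, adjusted p = 0.0123). Both PRC1CPM calls were lost in 4 of 20 other settings each. Summed muscle levels, led by Ttn, were 1435 to 2970.2 untreated and 1055 to 1247 after OHT in PRC1CKO, and 1489 to 2769 and 1037 to 1858 in PRC1CPM libraries. Of 5 trophoblast markers 4 were tested, with 1 higher in each line and 1 lower in PRC1CKO cells, Tfap2c at -0.66 (SE 0.22, adjusted p = 0.0255), a call lost in 4 of 20 other settings. The trophoblast list, led by Tfap2c, summed to 1415 to 1841 untreated and 1165 to 1511 after OHT in PRC1CKO, and 1141 to 1244 and 1422 to 2052 in PRC1CPM libraries. Of the 12 ESC markers, Fgf4, Sox2 and Utf1 were lower in PRC1CKO cells, at -1.06 (SE 0.22, adjusted p = 0.000176), -0.89 (SE 0.20, adjusted p = 0.00051) and -0.79 (SE 0.22, adjusted p = 0.00643), and Fgf4 in PRC1CPM cells at -0.85 (SE 0.22, adjusted p = 0.00381), a call lost in 2 of 20 other settings. Summed ESC marker levels, led by Tfcp2l1, were 67265 to 87916 untreated and 55457 to 62561 after OHT in PRC1CKO, and 57122 to 70618 and 44228 to 67034 in PRC1CPM libraries. Summed endoderm and mesoderm levels were higher after OHT without overlap in both lines, muscle and ESC marker levels were lower without overlap in PRC1CKO, and trophoblast levels higher without overlap in PRC1CPM cells, while the summed neuron levels overlapped in both lines. Their part in the receptor results was not tested.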

How the data were processed

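The RNA of 12 libraries was analysed, 3 for each of 4 conditions. The authors aligned reads to mouse and Drosophila genomes (mm10 and dm6) with STAR and Bowtie 2, kept unique reads without PCR duplicates, counted them over transcript bodies and deposited normalised read counts, a signal obtained by dividing each count by a DESeq2 size factor from Drosophila genes corrected by matched genomic DNA libraries, which were not analysed here. Deposited columns of fold changes and adjusted p-values, and a gene list, were not used. Whole reads were recovered from the steps of the values (100% within 0.02 of a whole read).

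Transcripts that reached 10 reads in 3 or more libraries entered limma 3.58.1 (R 4.3.3) on log2(normalised read count + 1), over all 12 libraries, with Benjamini-Hochberg adjustment. Scripts were tested on simulated data. DESeq2 1.42.0 and edgeR 4.0.16 on recovered reads, and the other settings in the closing section, were alternatives. Named genes were, per class, the 4 called with the largest PRC1CKO change (in every library the largest called in both lines), the highest untreated level per kb, genes lower or different between lines, and cluster members. The other receptor genes, the list genes, Gria2 and Htr2a were named, and the chromosome 5 genes given in every library, after their values were seen. A few genes are counted but not reported here by name. Gabra5 was therefore given in every library for GABA-A in place of the gene the rule names, a choice made after its values were seen. The receptor genes and lists were chosen with earlier results of these data known. CpG and RefSeq windows were read with Python 3.11.15.

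Same-numbered libraries deviated together, with r over 0.1 in 17 of 18 pairs of libraries. Over all 18, r ran from 0.0988 to 0.438 with a mean of 0.205, against -0.102 for other pairs. Deviations from a group mean sum to 0 within the group. The mean for other pairs therefore nearly follows from that for same-numbered pairs and is no separate support. By every pair exceeding 0.1, numbers paired all groups with each other except untreated with OHT-treated PRC1CKO libraries (r from 0.0988 to 0.179). Labels call replicates biological but name no shared batch, so p-values measure the spread between these samples.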

Additional observations from a re-analysis of the deposited data

How the results depend on the processing

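The receptor genes higher in each line and in both lines stayed within 1.5 times of the counts given under every setting that kept all libraries, from 36 to 48 in PRC1CKO, 35 to 49 in PRC1CPM and 31 to 41 in both lines. Of counts that moved, genes different between OHT-treated lines numbered 4 with TMM factors, 4 without the genomic DNA correction and 8 with the replicate block, against 2. Genes different between untreated lines numbered 4 with TMM factors, 1 with a pseudocount of 0.1 and 15 with the replicate block, against 2. A difference in response between the lines was called for 3 genes with the replicate block (Grin3a at -2.0, Gabra4 at -1.07 and Grm8 at -1.05) and 0 without it. With a pseudocount of 0.1 the genes lower in PRC1CKO fell to 1, and with each line fitted alone those lower in PRC1CPM fell to 0. Leaving out each library in turn gave 32 to 46 genes higher and 0 to 3 lower in PRC1CKO, 25 to 41 and 0 to 1 in PRC1CPM, 25 to 38 higher in both, 1 to 3 different between OHT-treated lines and 1 to 9 between untreated lines. The extremes for untreated lines were 9 without the first untreated PRC1CKO library, and 1 without the third, without the first untreated PRC1CPM library or without the second OHT-treated PRC1CPM library. The cause of these shifts was not tested. The replicate block moved none of the 3 counts of higher receptor genes over all classes by over 1.5 times. Without the genomic DNA correction all genes tested had a median log2 fold change of -0.037 in PRC1CKO and 0.39 in PRC1CPM, and with TMM factors of -0.0019 and -0.0072. Over the 63 receptor genes and 79 genes of the other lists followed through the settings, receptor genes kept direction and call in 2411 comparisons, lost the call in 102, gained it in 49 and changed sign in 34, and the genes of the other lists did so in 3078, 221, 64 and 6. All changes of sign were in contrasts in which the gene was not called. Adrb3 was at -0.049 with TMM factors and -0.085 without the genomic DNA correction in PRC1CKO, and at 0.23 without that correction in PRC1CPM cells. Without the correction, PRC1CPM values were 0.12 for Chrne, 0.19 for Gabbr1, 0.26 for Grin1 and 0.25 for Hrh3. PRC1CPM values were -0.010 for Gabrg1 with TMM factors, 0.020 and 0.021 for Grin1 in DESeq2 and edgeR, and -0.0028 and -2.7e-05 for Grm2. With 1 library left out, PRC1CKO values ranged from -0.031 to 0.13 for Adrb3, -0.18 to 0.12 for Gabbr1, -0.40 to 0.29 for Gabrg1, -1.48 to 0.33 for Glra1 and -0.75 to 0.44 for Grin1, which was called only at the lowest of these. PRC1CPM values ranged from -0.27 to 0.21 for Adrb3, -0.041 to 0.61 for Chrnb4, -0.56 to 0.22 for Chrne, -0.26 to 0.071 for Gabbr1, -0.30 to 0.40 for Gabrg1, -0.39 to 0.42 for Grin1, -0.31 to 0.76 for Grm2 and -0.076 to 0.73 for Htr3a, and, in the other lists, from -0.067 to 0.63 for Gad1, -0.25 to 0.25 for Hrh3, -0.59 to 0.067 for Lhfpl4 and -0.12 to 0.34 for Myh3. Depth limited the 18 genes not tested and those with few untreated reads.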
